A study of Mus musculus with 36 samples.

Results

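The creatine kinase system and myoglobin were followed through heart development as 9 genes: Ckm, Ckmt2, Ckmt1, Ckb, Slc6a8, Gatm, Gamt, Ak1 and Mb. The genes were taken by symbol from the annotated array table, in which 14 of 45101 probe sets carried these symbols, so that 9 of 20701 gene IDs were described. On this array a probe set combines several short probes for a transcript, and each gene was read from its probe set with the highest mean over all arrays. Hearts of OF1 (Oncins France 1) mice, an outbred stock with no allele or treatment named in the labels, were taken daily over the embryonic stages E10.5 to E19.5, and hearts of young adults of 10 weeks and of old adults were added. The labels gave the old adults as 14 months old, while the methods of the study gave a younger age. Each of the 12 stages had 3 arrays, 36 in all. E10.5 and E11.5 had mixed-sex arrays only, while later stages had 1 female, 1 male and 1 mixed array each. Values were log2 intensities, in which 1 unit is a doubling, and levels were compared only within a probe set.

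Creatine kinase moves a phosphate group between ATP and creatine, so that phosphocreatine buffers ATP where it is consumed. Ckm encodes the muscle subunit, which sits in the cytosol and at the M-band of the sarcomere, and Ckmt2 the sarcomeric mitochondrial enzyme, which charges creatine with newly made ATP. Ckb and Ckmt1 encode the brain-type cytosolic subunit and the ubiquitous mitochondrial enzyme. Gatm and Gamt encode the enzymes of creatine synthesis, Slc6a8 the transporter that takes creatine up from the blood, and Ak1 the cytosolic adenylate kinase, a parallel route of phosphate transfer. Mb encodes myoglobin, the oxygen-binding protein of heart and skeletal muscle. Heart muscle makes little creatine itself and depends on uptake.

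The extraction text of the labels names liver, so the tissue was checked first. Of 5 listed cardiomyocyte genes 4 were read, and all 4 had a mean above 5 at every stage. The mean of this list lay between 10.23 at E11.5 and 11.19 at E19.5. It was 10.39 at E10.5 and 10.65 in the young adult, below its E19.5 value. None of the 5 liver genes read reached a mean of 5 at any stage, with list means from 3.35 to 3.93. Of 9 skeletal muscle genes only Mylpf, a myosin light chain, rose above 5, with 7.16 at E10.5 and 5.55 in the young adult. Array medians lay between 4.0 and 4.2. In bulk tissue, fewer cells of a type and less RNA per cell cannot be told apart. Lists of other cell types also moved between E10.5, E19.5 and the young adult. The mean of 4 fibroblast genes was 6.88, 8.87 and 9.36 at these stages, and that of 4 endothelial genes 5.77, 6.46 and 6.85, with all 4 genes of each list above 5 in the young adult. The mean of 4 smooth muscle genes was 8.09, 7.51 and 8.62, and that of 6 neuron and Schwann cell genes 4.37, 4.19 and 4.69. The mean of 5 erythroid genes was 8.62, 4.29 and 4.06, with the embryonic globin Hbb-y at 13.60 in the youngest hearts. The part of these cell types in the changes described here was not tested.

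The muscle-type genes Ckm, Ckmt2 and Mb were near the bottom of their range in the youngest hearts and higher at E19.5. Ckm and Mb had their lowest stage mean at E10.5. Ckmt2 had it at E12.5, with 3.87 against 4.22 at E10.5. Ckm measured 3.48, 3.88 and 3.48 on the 3 arrays of E10.5. It measured 10.26, 10.35 and 8.89 at E19.5, and 9.84, 10.32 and 9.88 in the young adult. The arrays of E10.5 lay below all arrays of the other 2 stages, whereas E19.5 and young adult overlapped. Ckmt2 measured 3.84, 4.45 and 4.37 at E10.5, then 9.58, 9.26 and 8.47 at E19.5. In the young adult its values were 11.12, 11.47 and 11.33, and none of these 3 groups of arrays overlapped. Mb measured 6.09, 6.89 and 5.38 at E10.5 and 10.78, 10.99 and 10.15 at E19.5. With 12.57, 12.49 and 12.80 in the young adult, its 3 groups did not overlap either.

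**Figure D1:**
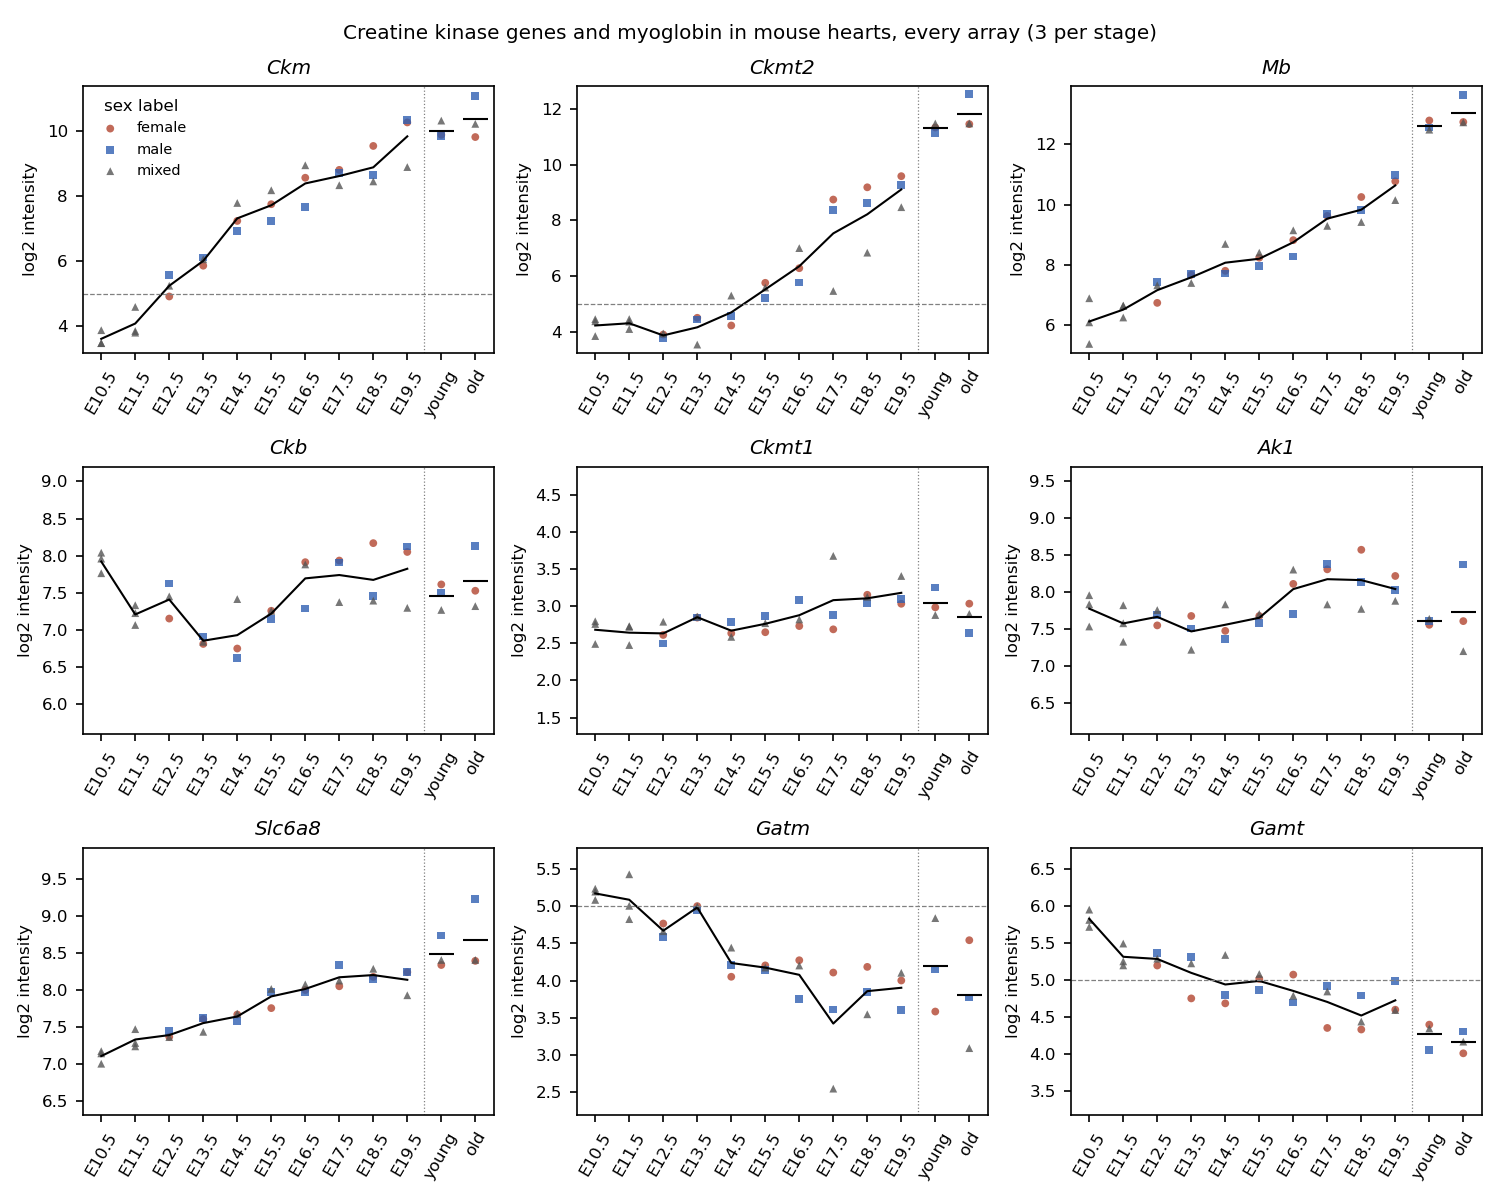
Log2 intensity of the 9 genes on every array against stage, with symbols for the sex label, a line through the embryonic stage means and bars at the adult means. The dashed line marks 5, the dotted line separates embryos from adults, and each axis spans its own gene. Ckm and Mb climb from E10.5 to E19.5 and Ckmt2 from E12.5 on, Ckb and Ak1 stay within about 1 unit, and Gatm and Gamt decline.

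Calls were made at a stricter and a looser limit. For a call, the adjusted p had to be under 1e-05, the log2 difference above 2 (4-fold), and the mean of some stage above 5. A looser limit was an adjusted p under 0.05. All adjusted p values come from limma, a linear model with moderated variances over all probe sets, with Benjamini-Hochberg adjustment. Against the young adult, 3 of 9 genes were called lower at E10.5, where 2.1% of all probe sets were called lower. Ckm was 84.4-fold lower, a log2 difference of -6.40 (SE 0.356, adjusted p = 7.81e-16). Ckmt2 was 136-fold lower, with a log2 difference of -7.09 (SE 0.542, adjusted p = 1.54e-12). Mb was 90.3-fold lower, with a log2 difference of -6.50 (SE 0.307, adjusted p = 1.41e-17). The E10.5 means of Ckm and Ckmt2, 3.62 and 4.22, were near the array medians, where levels cannot be told from background. Counted from the limit of 5 in place of these means, Ckm differed 32.3-fold and Ckmt2 79.3-fold. None of the 9 genes was called higher at E10.5, against 4.43% of all probe sets.

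At the looser limit, 4 of the 9 genes were lower and 2 higher at E10.5 than in the young adult, against 35.9% and 27.1% of all probe sets. Slc6a8 was lower beside Ckm, Ckmt2 and Mb, and the higher genes were Gamt and Gatm. The median difference of the 9 genes was -0.36, and that of all probe sets -0.19. Ckb, Ak1 and Ckmt1 did not pass this limit.

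Between E10.5 and E19.5 the same 3 genes were called lower at the younger stage, where 0.698% of all probe sets were called lower and 1.48% higher. Ckm rose 74.5-fold within the embryo, by 6.22 log2 units (SE 0.356, adjusted p = 9.21e-15). Ckmt2 rose 29.5-fold, by 4.88 units (SE 0.542, adjusted p = 1.68e-08), and Mb 22.9-fold, by 4.52 units (SE 0.307, adjusted p = 4.68e-13). Counted from the limit of 5, the rise was 28.6-fold for Ckm and 17.2-fold for Ckmt2. At the looser limit, 5 of the 9 genes were lower and 2 higher at E10.5 than at E19.5, against 23.7% and 21.8% of all probe sets. The lower genes were Ckm, Ckmt2, Mb, Slc6a8 and Ckmt1, of which Ckmt1 had both means below 5, where no order of stages was read. The median difference of the 9 genes was -0.50, and that of all probe sets -0.15.

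From E19.5 to the young adult the 3 genes parted. Ckm differed by -0.18 log2 units (SE 0.356, adjusted p = 0.757) and was at 88.3% of the young adult mean at E19.5. Ckmt2 was 4.61-fold lower at E19.5, with a difference of -2.20 units (SE 0.542, adjusted p = 0.00217). Mb was 3.94-fold lower, with a difference of -1.98 units (SE 0.307, adjusted p = 6.61e-06). None of the 9 genes met the stricter rule, against 0.634% of all probe sets lower and 0.818% higher. Mb missed it by the fold and Ckmt2 by the p value. At the looser limit 2 genes, Ckmt2 and Mb, were lower and 1 gene, Gamt, was higher at E19.5, against 13.6% and 15.5% of all probe sets. Gamt had both means below 5, where no order of stages was read. The mixed-sex array held the lowest Ckm of E19.5, and without it the Ckm difference was 0.29 (adjusted p = 0.591), Ckmt2 -1.89 (adjusted p = 0.0193) and Mb -1.74 (adjusted p = 0.000189).

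**Figure D2:**
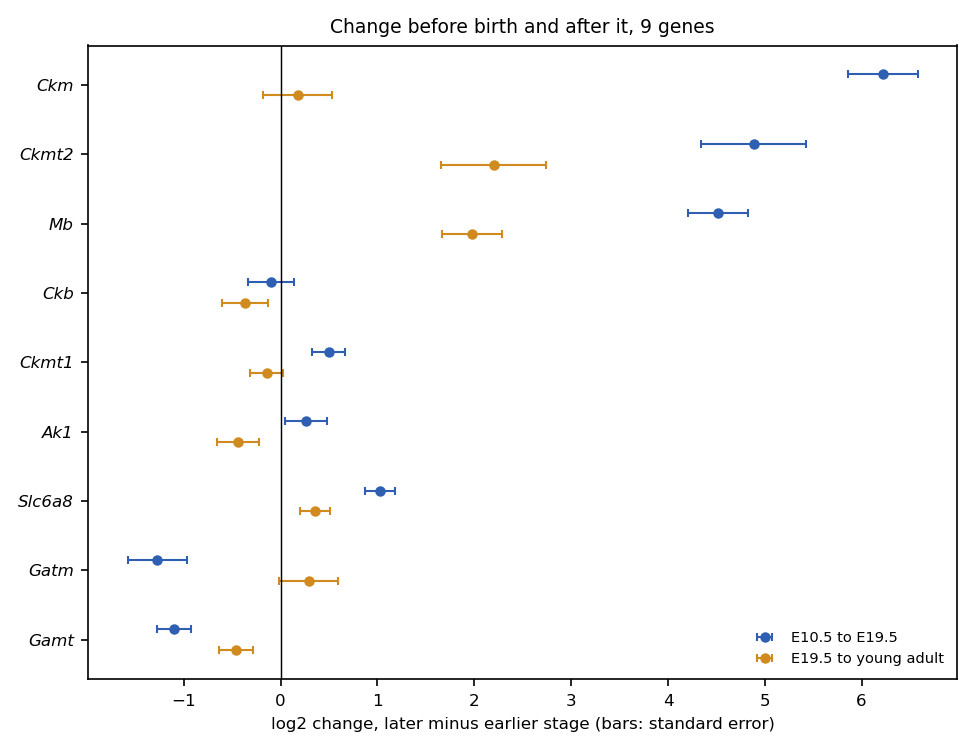
Log2 change of each of the 9 genes from E10.5 to E19.5 and from E19.5 to the young adult, later minus earlier stage, with the standard error of the limma model as bars. Ckm has its change before birth, with 6.22 units against 0.18 after it, while Ckmt2 and Mb add 2.20 and 1.98 units after E19.5.

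On the log2 scale, Ckm had completed 97.2% of its rise from E10.5 to the young adult by E19.5, a share that ranged from 93.2% to 105% when single arrays were left out. For Ckmt2 the share was 68.9% (65.5% to 73.4%), and for Mb 69.5% (66.9% to 73.3%). The midpoint of the log2 rise, read by interpolation between daily means, fell at embryonic day 14.1 for Ckm (14.0 to 14.3), 17.3 for Mb (17.0 to 17.6) and 17.8 for Ckmt2 (17.1 to 18.5). These ranges also come from leaving out single arrays. The range of Ckm did not meet those of the other two, and the ranges of Mb and Ckmt2 overlapped. The start of Ckm and Ckmt2 lies where levels cannot be told from background, so their midpoints depend on it. With stage means under 5 set to 5, a choice made after seeing the data, the midpoint was 15.0 for Ckm (14.5 to 15.5) and 18.4 for Ckmt2 (17.3 to 18.8), and the shares were 96.4% and 65.1%. Mb was above 5 throughout and kept its values.

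The same differences were then read within arrays, which restates the changes from E19.5 to the young adult given above and is no independent measurement. Ckmt2 minus Ckm was -0.73 ± 0.334 (SD, n = 3) at E19.5 and 1.29 ± 0.146 in the young adult, a shift of 2.02 log2 units. Mb minus Ckm shifted by 1.80 units, from 0.81 ± 0.401 to 2.60 ± 0.385. For both, the arrays of the 2 stages did not overlap, and the exact permutation test gave p = 0.1 for each, two-sided, which is the smallest p that 3 against 3 arrays allow. Mb minus Ckmt2 shifted by -0.22 units, with overlapping arrays and an exact permutation p of 0.4. Adjusted over these 3 comparisons, p was 0.15, 0.15 and 0.4. The baselines of such differences depend on the probes, so only their shift between stages was read.

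**Figure D3:**
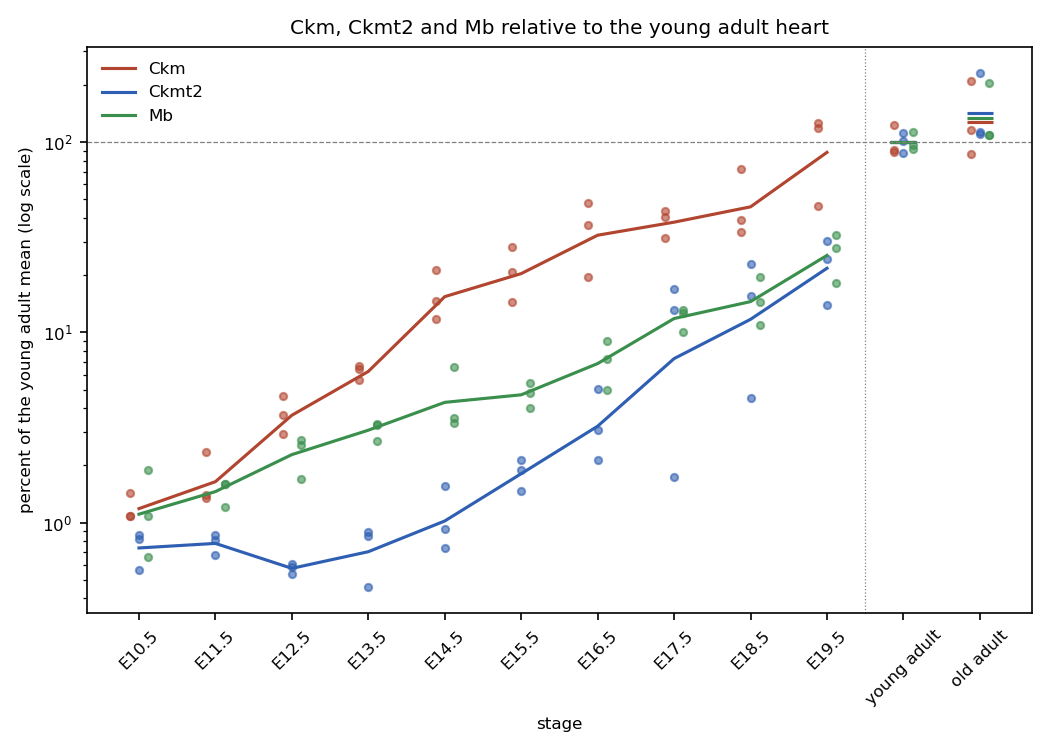
Ckm, Ckmt2 and Mb as percent of their young adult mean, on a log axis, by stage, with points for single arrays, lines through embryonic means and bars for adult means. At E14.5 Ckm was at 15.4%, Mb at 4.28% and Ckmt2 at 1.02% of the young adult mean, and at E19.5 at 88.3%, 25.4% and 21.7%.

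Day by day, Ckm and Mb increased at 9 of 9 steps between daily means and Ckmt2 at 8 of 9. The steps themselves were not tested. The first 5 daily means of Ckm, up to E14.5, were 3.62, 4.09, 5.25, 6.01 and 7.32. The next 5 were 7.72, 8.39, 8.62, 8.88 and 9.84. On the log2 scale, the largest Ckm steps were 1.31 units from E13.5 to E14.5 and 1.16 from E11.5 to E12.5. The latter step starts below 5. Next came 0.95 from E18.5 to E19.5. Ckmt2 stayed between 3.87 and 4.30 up to E13.5, and its means from E14.5 to E19.5 were 4.69, 5.52, 6.35, 7.53, 8.21 and 9.11. Ckmt2 passed a mean of 5 at E15.5, Ckm at E12.5, and Mb was above it from the start. Mb increased by daily steps of 0.13 to 0.81 units, from 6.12 over 7.16 at E12.5, 8.07 at E14.5 and 8.75 at E16.5 to 10.64 at E19.5.

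Against the young adult, all 3 genes were called lower at each stage from E11.5 to E15.5. The shares of all probe sets called lower were 1.84%, 1.75%, 1.66%, 1.52% and 1.58% at these stages. Ckmt2 and Mb alone were called at E16.5 and E17.5, with 1.25% and 1.2% of all probe sets called lower, and Mb alone at E18.5, with 1.01%. Ckm dropped below 4-fold at E16.5, where it was 3.09-fold lower (adjusted p = 0.000409). Ckmt2 was still 8.54-fold lower at E18.5, but its adjusted p of 2.86e-05 missed the limit.

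Some arrays stood apart from the others of their stage. At E17.5 Ckmt2 measured 8.74 on the female, 8.38 on the male and 5.46 on the mixed array, and at E18.5 it measured 9.18, 8.62 and 6.84 in the same order. The mixed array was the low one at both stages, and the SD of E17.5 was 1.80. On the same 3 arrays of E17.5 the cardiomyocyte list averaged 11.25, 11.12 and 10.63. The hybridization control level, the mean of 9 probe sets for RNA added in a fixed amount, was 11.19, 11.79 and 12.20. Mb differed less, with 9.63, 9.69 and 9.30 at E17.5. Leaving out the mixed arrays of E17.5, E18.5 and E19.5 and the old adult male array, a choice made after seeing the data, raised the count at E18.5 from 1 to 2 genes. Ckmt2 was then 2.41 log2 units below the young adult (SE 0.304, adjusted p = 3.22e-07).

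The control level also moved with stage, from a mean of 10.16 at E10.5 to 11.39 at E19.5, 12.34 in the young adult and 11.58 in the old adult. Within stages, the array with the highest control level held the lowest Mb and Ak1 in 10 of 12 stages each, the lowest Ckb in 9, Ckm in 8, Ckmt2 and Gamt in 7 and Gatm in 6. It held the lowest Slc6a8 in 4 and the highest in 4, and the lowest Ckmt1 in 1 and the highest in 8. If the orders were unrelated, 1 array of 3 would be the lowest in about 4 of 12 stages. The members also followed the cardiomyocyte list within stages. The array with the highest mean of that list held the highest Ckm in 10 of 12 stages and the highest Mb in 8. It held the highest Ckmt2, Ckb, Slc6a8 and Ak1 in 7 each, Gamt in 6, Gatm in 5 and Ckmt1 in 1. These orders were not counted over all probe sets. With the control level as a covariate, Ckm, Ckmt2 and Mb were called at E10.5 against the young adult, with differences of -8.45, -10.89 and -8.59. Ckmt2 and Mb were then also called at E19.5, with differences of -3.86 (adjusted p = 4.64e-08) and -2.89 (adjusted p = 3.31e-10), and Ckm differed by -1.07 (adjusted p = 0.0186). The part of the control level in the values without the covariate was not tested.

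The second probe sets of Ckm and Mb changed by less. The second Ckm probe set had means of 3.86 (E10.5) and 5.01 (E19.5), a rise of 1.15 units (adjusted p = 9.17e-07). The second Mb probe set stayed below 5 at every stage mean, with 4.22 at E10.5 and 4.90 in the young adult (adjusted p = 0.00338). Both measured lower at E10.5 than in the young adult, as the probe sets read did, with less than 4-fold. Their means at these stages were all below 5, where no order of stages was read.

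The stretches before the annotated starts of Ckm, Ckmt2 and Mb are shown as those of the genes called, with that of Ckb, the other cytosolic subunit, beside them. Sequences are those of RefSeq on assembly GRCm38.p6, 250 bases ending at the base before the start, written 5′ to 3′ on the strand of the gene. Capitals mark matches on either strand. The E-box, which muscle factors of the basic helix-loop-helix family bind, was searched as CANNTG. The MCAT element, which TEAD factors bind, was searched as CATTCC, and the TATA box of the core promoter as TATAAA. No 2 of these matches overlapped.
Ckm, chr7:19410844-19411093, plus strand: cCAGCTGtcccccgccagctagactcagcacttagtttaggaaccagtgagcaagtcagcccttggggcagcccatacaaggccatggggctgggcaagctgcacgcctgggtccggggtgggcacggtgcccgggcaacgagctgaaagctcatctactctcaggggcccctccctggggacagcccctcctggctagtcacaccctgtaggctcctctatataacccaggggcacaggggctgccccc
Ckmt2, chr13:91876886-91877135, minus strand: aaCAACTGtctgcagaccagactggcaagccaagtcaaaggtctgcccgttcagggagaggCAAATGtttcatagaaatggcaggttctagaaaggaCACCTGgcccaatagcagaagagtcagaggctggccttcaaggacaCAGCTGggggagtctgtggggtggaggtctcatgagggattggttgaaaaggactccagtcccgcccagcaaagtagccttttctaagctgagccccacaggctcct
Mb, chr15:77022788-77023037, minus strand, 1 of 3 starts listed: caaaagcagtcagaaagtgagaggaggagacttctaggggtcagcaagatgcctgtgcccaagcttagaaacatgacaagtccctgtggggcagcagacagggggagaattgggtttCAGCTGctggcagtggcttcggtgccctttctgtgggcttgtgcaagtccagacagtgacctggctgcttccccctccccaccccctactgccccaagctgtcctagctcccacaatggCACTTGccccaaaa
Ckb, chr12:111672339-111672588, minus strand: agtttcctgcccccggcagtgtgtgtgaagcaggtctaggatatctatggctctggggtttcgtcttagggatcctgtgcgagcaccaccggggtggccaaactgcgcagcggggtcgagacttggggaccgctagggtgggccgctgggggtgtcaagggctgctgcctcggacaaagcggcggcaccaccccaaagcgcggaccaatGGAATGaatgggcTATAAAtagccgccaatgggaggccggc

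The Ckm stretch held 1 E-box, the Ckmt2 stretch 4 and the Mb stretch 2, with no exact match to the other letters. Near its end the Ckm stretch reads tatataa, which the search for TATAAA does not match. A lack of match is therefore not a lack of similar letters. The Ckb stretch held no E-box and 1 match each to MCAT and TATA, the latter 28 bases before the start. E-boxes occurred in 66.2% of 32851 promoter stretches of this length, MCAT letters in 12.6% and TATA letters in 12.4%. The other genes did not divide by these letters. E-boxes were also found before all 4 listed starts of Ak1 and before Gatm, MCAT and TATA letters before 1 of 2 starts of Ckmt1, and none of the 3 before Gamt. Letter matches are a description and not evidence of binding.

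Ckb, the brain-type subunit, stayed above the limit of 5 on every array and moved little. It measured 8.04, 7.96 and 7.76 at E10.5, then 6.81, 6.91 and 6.84 at E13.5. At E19.5 it measured 8.05, 8.12 and 7.30, and in the young adult 7.49, 7.27 and 7.61. E10.5 arrays lay above and E13.5 arrays below those of the young adult, while E19.5 overlapped with it. Its stage means spanned 1.07 log2 units, from 7.92 at E10.5 to 6.85 at E13.5. Against the young adult, E13.5 differed by -0.61 units (SE 0.234, adjusted p = 0.034), E10.5 differed by 0.46 (adjusted p = 0.0834) and E19.5 by 0.37 (adjusted p = 0.261). The difference at E10.5 turned to -0.06 when arrays were centred on the median of expressed probe sets and to -0.98 with the control level as a covariate (adjusted p = 0.0375).

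Ckmt1, the ubiquitous mitochondrial enzyme, had both probe sets below a mean of 3.2 at every stage and did not pass the limit of 5. Its mean was 2.68 in E10.5 hearts and 3.18 in E19.5 hearts, a difference of -0.50 that passed the looser limit (adjusted p = 0.0187). The second probe set was lower at E19.5 than in the young adult, by -0.65 (adjusted p = 0.000995), where the one read differed by 0.14. At such intensities no order of stages was read.

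Ak1, the cytosolic adenylate kinase, lay between stage means of 7.47 at E13.5 and 8.17 at E17.5. It measured 7.83, 7.96 and 7.53 at E10.5, 8.22, 8.02 and 7.88 at E19.5, and 7.61, 7.64 and 7.56 in the young adult. The 3 arrays of E19.5 lay above all young adult arrays, with a difference of 0.44 (SE 0.219, adjusted p = 0.14). At E17.5 and E18.5 the differences of 0.57 and 0.56 passed the looser limit (adjusted p = 0.0427 and 0.0488). The direction at E10.5 depended on the scale, with 0.17 as deposited, -0.35 after centring and -1.27 with the control level as a covariate (adjusted p = 0.00211). The second Ak1 probe set gave -0.55 (adjusted p = 0.0459).

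By the probe sets read, the transporter was lower and both enzymes of creatine synthesis were higher at E10.5 than in the young adult. Slc6a8 measured 7.01, 7.15 and 7.18 at E10.5, 8.24, 8.25 and 7.93 at E19.5, and 8.74, 8.41 and 8.34 in the young adult. None of these groups overlapped. It was 2.61-fold lower at E10.5 than in the young adult, a difference of -1.38 (SE 0.154, adjusted p = 5.21e-09), and 2.04-fold lower than at E19.5 (adjusted p = 2.84e-06). From E19.5 on, the difference to the young adult was -0.35 (adjusted p = 0.0846). The second Slc6a8 probe set had stage means from 5.06 to 5.73. It differed by -0.34 between E10.5 and the young adult (adjusted p = 0.0703) and by 0.0068 between E10.5 and E19.5 (adjusted p = 0.976).

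Gamt, which methylates guanidinoacetate to creatine, measured 5.95, 5.81 and 5.72 at E10.5, 4.60, 4.98 and 4.59 at E19.5, and 4.06, 4.35 and 4.40 in the young adult. Its groups did not overlap. Gamt was 2.94-fold higher at E10.5 than in the young adult, a difference of 1.56 (SE 0.176, adjusted p = 7.28e-09). It was 2.14-fold higher at E10.5 than at E19.5 (adjusted p = 7.96e-06) and 1.37-fold higher at E19.5 than in the young adult (adjusted p = 0.0495). Its stage means were above 5 from E10.5 to E13.5 and below 5 from E14.5 on. The sizes of the Gamt folds from E10.5 therefore depend on background. Between E19.5 and the young adult, both with means below 5, no order was read. After centring, its difference at E10.5 was 1.03 (adjusted p = 8.42e-06).

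Gatm, which makes guanidinoacetate, measured 5.20, 5.24 and 5.09 at E10.5 and from 3.60 to 4.10 at E19.5. In the young adult its arrays spread from 3.58 to 4.84. Gatm was 1.97-fold higher at E10.5 than in the young adult, a difference of 0.98 (SE 0.303, adjusted p = 0.00622), and 2.42-fold higher than at E19.5 (adjusted p = 0.00107). The E10.5 mean of 5.17 was just above 5, while those of E19.5 and the young adult, 3.90 and 4.19, were below it. The sizes of these folds therefore depend on background. The Gatm difference to the young adult was 0.45 after centring (adjusted p = 0.144) and -0.26 with the control level as a covariate (adjusted p = 0.795). The lowest Gatm value, 2.54, was on the mixed array of E17.5. The expressed probe sets as a whole sat 0.53 units higher at E10.5 than in the young adult, which centring removes.

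None of the 9 genes passed the tests of age in the adult or of sex. Between old and young adult none was called, against 0.00665% of all probe sets. None of the 9 passed the looser limit in limma, which 3.13% of all probe sets passed as lower and 3.83% as higher in the old adult, and none had an unadjusted p under 0.05. The old adult male array was the highest for 7 of the 9 genes, all but Ckmt1 and Gatm. Ckm measured 11.08 on it against 10.22 and 9.81 on the other two, Ckmt2 12.52 against 11.48 and 11.45, and Mb 13.64 against 12.74 and 12.75. The cardiomyocyte list averaged 11.38 on this array against 10.65 and 10.92. The difference between old and young adult was 0.36 for Ckm, 0.51 for Ckmt2 and 0.42 for Mb. Without the male array it was 0.0022, 0.16 and 0.12.

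Over 9 pairs of male and female arrays from E13.5 on, with E12.5 left out as in the methods of the study, male minus female passed the adjusted limit in 0 of the 9 genes in limma and in 0.0488% of all probe sets, and 0 of the 9 had an unadjusted p under 0.05. The largest in size was -0.21 for Gatm (SE 0.116, adjusted p = 0.676), which was higher in the male in 2 of 9 pairs. The largest above 0 was 0.18 for Slc6a8 (SE 0.0954, adjusted p = 0.673), higher in the male in 6 of 9 pairs. The difference of this contrast between adults and embryos also passed in 0 of 9 genes, against 0.548% of all probe sets. At an unadjusted p under 0.05 it held in 4 of 9, namely Ckm, Ckmt2, Slc6a8 and Ak1, against 13.9% of all probe sets. Without the old adult pair it held in 1 of 9, against 18.4%.

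The genes that work beside the system were read from a list of 24, all of which were found. Between E10.5 and the young adult, 2 were called higher and 2 lower at E10.5, against 4.43% and 2.1% of all probe sets. At the looser limit, 11 were higher, 7 lower and 6 neither, against 27.1% of all probe sets higher and 35.9% lower. Their median difference was 0.34, against -0.19 over all probe sets and 0.41 over the expressed ones, which the list did not exceed. Myom2, an M-band protein to which the muscle enzyme binds, had a mean of 2.60 in the youngest hearts, 11.85 at E19.5 and 11.94 for young adults. Counted from the limit of 5, since its first mean lies below the array medians, its rise within the embryo was 115-fold (adjusted p of the measured difference = 3.42e-19), and after E19.5 it differed by -0.09 (adjusted p = 0.885). Myom1, the other M-band protein, stayed between means of 9.54 in the young adult and 10.29 at E19.5.

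Of the globins outside the red cell, Cygb rose from 4.17 at E10.5 over 6.41 at E19.5 to 8.32 in the young adult. It was called in both comparisons with E10.5, with 4.72-fold to E19.5 and 17.8-fold to the young adult, or 2.65-fold and 10.02-fold counted from the limit of 5. Like Mb, Cygb was 3.78-fold lower at E19.5 than in the young adult (adjusted p = 2.2e-07). Ngb stayed below 5, from 4.06 to 4.74. Slc16a12, a creatine exporter, ran against Slc6a8, with 8.38 in the youngest hearts, 5.08 on the last embryonic day and 4.71 in young adults. It was 12.8-fold higher at E10.5 than in the young adult (adjusted p = 8.01e-11).

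**Figure D4:**
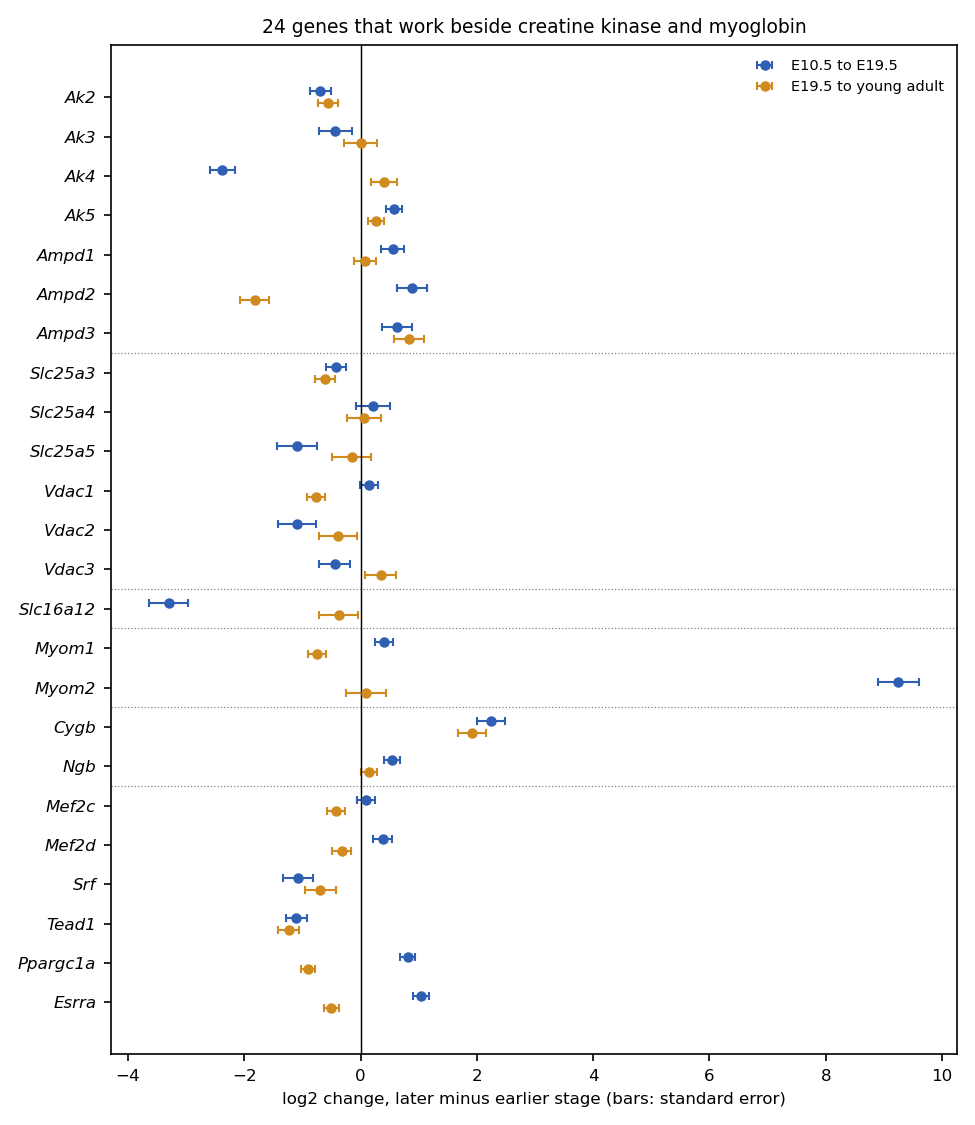
Log2 change of 24 genes that work beside creatine kinase and myoglobin from E10.5 to E19.5 and from E19.5 to the young adult, later minus earlier stage, with standard errors as bars and dotted lines between the functional groups. Myom2 has the highest change before birth, Cygb moves up in both intervals, and Slc16a12 and Ak4 decline before birth.

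Of 6 mitochondrial carriers and channels for ATP, ADP and phosphate, 4 were higher and 0 lower at E10.5 than in the young adult. This was at the looser limit, which 27.1% of all probe sets passed as higher and 35.9% as lower. The median difference of the 6 was 0.83, against 0.41 over expressed probe sets. Slc25a4, the heart isoform of the ADP/ATP carrier, measured 12.01 at E10.5 and 12.29 in the young adult (adjusted p = 0.405). Among 7 adenylate kinases and AMP deaminases, 3 were higher and 3 lower at E10.5 at that limit, against the same 27.1% and 35.9%. Ak4 fell 5.19-fold within the embryo, from 8.19 to 5.82 (adjusted p = 5.59e-10). Ampd2 rose to 9.85 at E19.5 and was 3.54-fold lower in the young adult (adjusted p = 1.21e-06).

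Of 6 factors known from enhancers of Ckm and Mb, 5 were higher at E19.5 than in the young adult at the looser limit. In that comparison 15.5% of all probe sets passed as higher. The median difference of the 6 factors was 0.60, against 0.13 over expressed probe sets. With E10.5 set against the young adult, 2 factors passed as higher, beside 27.1% of all probe sets. Only 1 factor passed as lower there, beside 35.9%. The median difference was then 0.21, against 0.41 over expressed probe sets. Tead1 declined from 9.91 at E10.5 over 8.81 at E19.5 to 7.57 in the young adult, 5.07-fold in all (adjusted p = 3.16e-12). Ppargc1a and Esrra, which drive mitochondrial genes, were higher at E19.5 than at E10.5 by 0.81 and 1.04 units (adjusted p = 5.87e-06 and 2.22e-07). Both were lower in the young adult than at E19.5, by 0.90 and 0.50 units (adjusted p = 1.36e-06 and 0.00435). Between old and young adult, Srf alone of the 24 passed the looser limit, with 0.92 (adjusted p = 0.0287). Of all probe sets, 3.83% passed it as higher and 3.13% as lower in the old adult.

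Patterns over the 12 stage means were compared by Pearson correlation, as a description, since all genes share the same arrays and a common trend with age. Among the 9 genes, Ckmt2 and Mb correlated with r = 0.978, Ckm and Mb with 0.924 and Ckm and Ckmt2 with 0.876. Slc6a8 followed Ckm with 0.966, and Gamt ran against it with -0.94. Ckb was nearest to Ak1, with 0.761. Among all expressed genes, those nearest to Ckm were Cav1 (r = 0.995), Col15a1, Pde2a, Rgs5 and Naalad2 (0.989). Nearest to Ckmt2 were Ablim1 (0.993), Tuba4a, Lpl, Lims2 and Ly6e (0.992), and near to Mb were Rtp4, S100a1, Tns2 and Fmo1 (0.993). Ckb had no neighbour of that kind, with Ecsit at 0.928 first and Fgf13 at 0.873 last of its 5 nearest.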

How the data were processed

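The deposited values are log2 intensities that the authors made by robust multi-array average (RMA, which subtracts background, equalizes the distributions of all arrays and summarizes each probe set) from Affymetrix mouse genome arrays of 1 colour. The labels also name Partek 6.6. Detection calls were not used here. The 36 columns were matched to samples by name, and groups come from the labels. In 670 probe sets the annotated symbol was damaged and was restored through its gene ID.

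A model with 12 stage means was fitted to all 45101 probe sets in limma 3.58.1 (R 4.3.3), with moderated variances (24 residual degrees of freedom and a prior of 6.96) and p values adjusted after Benjamini and Hochberg over all probe sets. The limit on expression was applied after the test. Sex was tested over 9 pairs with stage as a block. Exact permutation tests used scipy 1.17.1. The fit was tested on simulated data.

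All 9 genes are named, with 24 companion genes and 5 nearest genes for each of Ckm, Ckmt2, Mb and Ckb, of which 1 is not reported here. The genes, lists and tests were chosen with earlier results of these data known. Whether hearts were pooled for the mixed arrays is not stated in the labels, so p values measure the spread between these samples. No build is named for the table, and no gene coordinates were taken from it.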

Additional observations from a re-analysis of the deposited data

How the results depend on the processing

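The 3 genes called at E10.5 against the young adult and against E19.5 were again 3 under every alternative run except for a log2 limit of 1, which gave 5 in both, with Slc6a8 and Gamt added, a fit of only the 6 arrays of E10.5 and E19.5, which gave 2, and the second probe sets of Ckm and Mb, which were not called. Those differed at E10.5 by -0.97 and -0.69 from the young adult and by -1.15 and -0.36 from E19.5. From E19.5 to the young adult, 0 genes were called, and 1 at a log2 limit of 1 (Mb), 1 after centring arrays on the median of expressed probe sets (Mb, -2.16) and 2 with the hybridization control level as a covariate. Old against young adult stayed at 0 in all of them. The sex comparisons were not rerun under these settings. Male minus female was rerun on the embryonic pairs only, and its difference between adults and embryos without the old adult pair. Both stayed at 0. Leaving out single arrays gave 3 throughout for both comparisons of E10.5, 0 for E19.5 and for old against young adult, and 18 to 20 calls summed over the stages from E11.5 to E18.5, where all arrays gave 20. With the sex label as a replicate block, 0 genes were called in E19.5 and in old against young adult. The labels do not say that a sex label marks a shared litter or day. Deviations of arrays with the same label correlated from -0.02 to 0.20, so the samples were not treated as paired, and E10.5 could not be blocked because its arrays are all mixed.

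In the fit of only E10.5 and E19.5 arrays, Mb missed the p limit (-4.52, adjusted p = 3.32e-05). Of 574 values of single genes under alternatives, 7 turned direction where one side passed an adjusted p under 0.05. With the covariate these were Ckb at E10.5 against young adult (-0.98) and against E19.5 (-0.71), Gatm (-0.26) and Ak1 (-1.27) at E10.5 against young adult. With other probe sets they were Ak1 at E10.5 (-0.55) and Ckmt1 at E19.5 (-0.65) against young adult, and Slc6a8 at E10.5 against E19.5 (0.0068). A further 35 turned where neither side passed. The causes were not tested. Control levels did not overlap between E10.5, E19.5 and young adult arrays, so results with that covariate cannot be separated from stage. With 3 arrays a stage and no detection calls, levels near the array median cannot be told from background, and small changes of Ckb, Ak1 and Ckmt1 depend on the scale.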
